A study of Mus musculus with 2 samples.

Results

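The 9 genes described here encode transcription factors that are known for their use in the projection neurons of the striatum, the GABAergic output cells of the basal ganglia. They were chosen by name (Isl1, Ebf1, Foxp1, Foxp2, Six3, Zfp503, Rarb, Rxrg and Meis2) from the 27998 genes counted, and all 9 had transcripts in both libraries. Droplet-based single-cell RNA sequencing (10x Genomics), in which reads of the same captured transcript share a unique molecular identifier (UMI) and count once, was done on brain tissue of C57BL/6 mice at postnatal day 0. The labels call the tissue telencephalic and the study's methods describe cerebral cortex. The genotypes were WT and STINGf/f;Nestin-Cre (cKO), with 1 library of each, and in cKO mice Nestin-Cre drives deletion of the floxed STING gene in the neural lineage, so cells outside that lineage are not targeted. The labels give no Cre or floxed allele for the WT library, but the study's text calls the control of this experiment both WT and STINGfl/fl, so whether its STING alleles were floxed is not settled. The number of animals behind each library was not given in the sources used here. With 1 library per genotype no test was possible, genotype differences compare single libraries, and all intervals are 95% intervals that cover counting error only.

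Striatal projection neurons leave the ventral germinal zones of the embryo and settle as intermingled populations. Direct pathway neurons carry the dopamine receptor Drd1 and the neuropeptides Tac1 and Pdyn, and indirect pathway neurons carry Drd2, Adora2a and Penk. Textbook roles divide the 9 genes in a like manner: Isl1 and Ebf1 belong to the direct pathway programme and Six3 to the indirect one, the forkhead repressors Foxp1 and Foxp2 act in both or in part of them, the retinoic acid receptor Rarb and its partner Rxrg respond to retinoic acid in the developing striatum, and Zfp503 (Nolz1) and the TALE homeodomain factor Meis2 are made early in the striatal lineage.

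The files held 69554624 UMIs in 10715 barcodes for WT and 67448785 UMIs in 9198 barcodes for cKO, and 6428 and 5776 cells were kept, with medians of 6483 and 7458.5 UMIs. The libraries shared 19 barcodes, of which 8 were among the kept cells. The deleted gene had 110 UMIs in the WT and 15 in the cKO kept cells. Cells were grouped by UMIs of marker genes, and none of the 9 genes was a marker. A GABAergic cell was called striatal-type when at least 4 of 16 striatal markers had a UMI, more than any interneuron or neuroblast list, and when it held fewer than 3 UMIs in all of the interneuron markers Lhx6, Nxph1, Sst and Npy. This gave 196 striatal-type cells in WT (3.05% of kept cells, Clopper-Pearson interval 2.64 to 3.50%) and 123 in cKO (2.13%, 1.77 to 2.54%). By the summed UMIs of the pathway markers, 35 WT and 24 cKO cells were direct pathway-type, 128 and 73 were indirect pathway-type, and 33 and 26 were unresolved. Drd2 was close to 0 in every group, with 0 CPM (UMIs of a gene scaled to 1000000 per cell group) in WT and 1.57 CPM in cKO indirect pathway-type cells, so the indirect type rested on Adora2a, Penk and Gpr6.

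The condition on interneuron markers was added after the 9 genes' values under a looser rule had been seen, and it removed cells unevenly. It was added because the WT striatal-type cells held many Sst and Npy UMIs and because WT direct pathway-type cells without any Foxp1 UMI had been noticed. It took out 26 WT and 6 cKO cells. The 26 WT cells held 2460 Sst and 3118 Npy UMIs beside 132 Foxp1, 349 Meis2 and 130 Six3 UMIs, whereas the 6 cKO cells held 6 Foxp1, 1 Meis2 and 0 Six3 UMIs. Values with these cells kept are therefore given wherever the rule changed a call.

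Promoter sequences are shown for 3 of the genes to place their start sites and the short motifs found in them, as RefSeq start sites give them on GRCm38.p6. In capitals are the direct repeat read by retinoic acid receptors in Rarb, an E-box of the kind bound by bHLH factors in Isl1, and the TGACAG core of TALE homeodomain factors such as Meis2 in Six3. Each sequence is the 250 bases before the start site, on the strand of the gene, and the positions are chr14:16575477-16575726 (minus strand) for Rarb, chr13:116309689-116309938 (minus strand) for Isl1 and chr17:85620584-85620833 (plus strand) for Six3.
Rarb: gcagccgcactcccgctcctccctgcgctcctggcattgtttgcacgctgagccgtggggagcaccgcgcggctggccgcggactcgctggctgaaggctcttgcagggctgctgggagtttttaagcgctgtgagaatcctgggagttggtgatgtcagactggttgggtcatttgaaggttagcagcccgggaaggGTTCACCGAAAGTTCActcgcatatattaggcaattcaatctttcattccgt
Isl1: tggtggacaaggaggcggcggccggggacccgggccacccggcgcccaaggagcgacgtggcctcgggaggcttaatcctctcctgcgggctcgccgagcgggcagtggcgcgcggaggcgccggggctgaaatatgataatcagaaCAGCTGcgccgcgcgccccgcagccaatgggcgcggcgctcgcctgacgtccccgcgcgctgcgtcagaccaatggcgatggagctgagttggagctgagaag
Six3: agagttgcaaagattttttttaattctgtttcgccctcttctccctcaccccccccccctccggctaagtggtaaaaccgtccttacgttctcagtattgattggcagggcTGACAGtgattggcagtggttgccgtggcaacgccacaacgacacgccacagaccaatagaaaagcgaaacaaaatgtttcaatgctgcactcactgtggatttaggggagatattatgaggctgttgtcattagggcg

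Of the 9 genes, 8 were matched to 12 RefSeq promoters, all but Foxp2. The motifs were searched on both strands of 32851 promoters of the same length. The direct repeat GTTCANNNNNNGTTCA was in 22 of them (0.067%), among which was Rarb. The motif TGACAG was in 15.9% of all promoters and in those of Foxp1 and Six3, CAGCTG in 13.0% and in those of Isl1 and Rxrg, and TAATTA in 4.84% and in that of Foxp1. These matches describe the letters in these windows and nothing more.

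Striatal-type cells held all of the genes at higher levels than the other neurons did, by wide margins for all but Meis2. In these cells 8 of the 9 were at least 2-fold higher than in the other neuron-type cells, with an interval that excluded 0, in both libraries. The same held for 3.1% of the 13426 genes with enough UMIs to be compared (at least 10 over both cell groups in each library). Under a stricter cell filter (1000 genes or more, and no more than 5% of UMIs from mitochondria), which left 22 WT and 9 cKO striatal-type cells, the count was 6 of 9. The median log2 ratio of the 9 genes was 3.07 in WT and 3.62 in cKO, beside -0.03 and 0.05 for all genes compared. Against the other GABAergic neurons alone the count was 5 of 9, where 4.1% of genes passed, and against glutamatergic neurons it was 9 of 9, where 3.81% passed. Isl1, Foxp2, Six3 and Meis2 did not pass against the other GABAergic neurons in both libraries. In WT and cKO, Foxp2 was at 0.93-fold and 1.39-fold, Six3 at 1.69-fold and 1.38-fold, Meis2 at 1.17-fold and 1.87-fold and Isl1 at 1.69-fold and 4.19-fold. Once the interneuron-marker cells were kept, Meis2 was no longer past 2-fold against glutamatergic neurons in WT (log2 ratio 0.89, 0.83 to 0.94, against 1.02 without them). The panels of levels by cell group show each gene in both libraries.

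**Figure D1:**
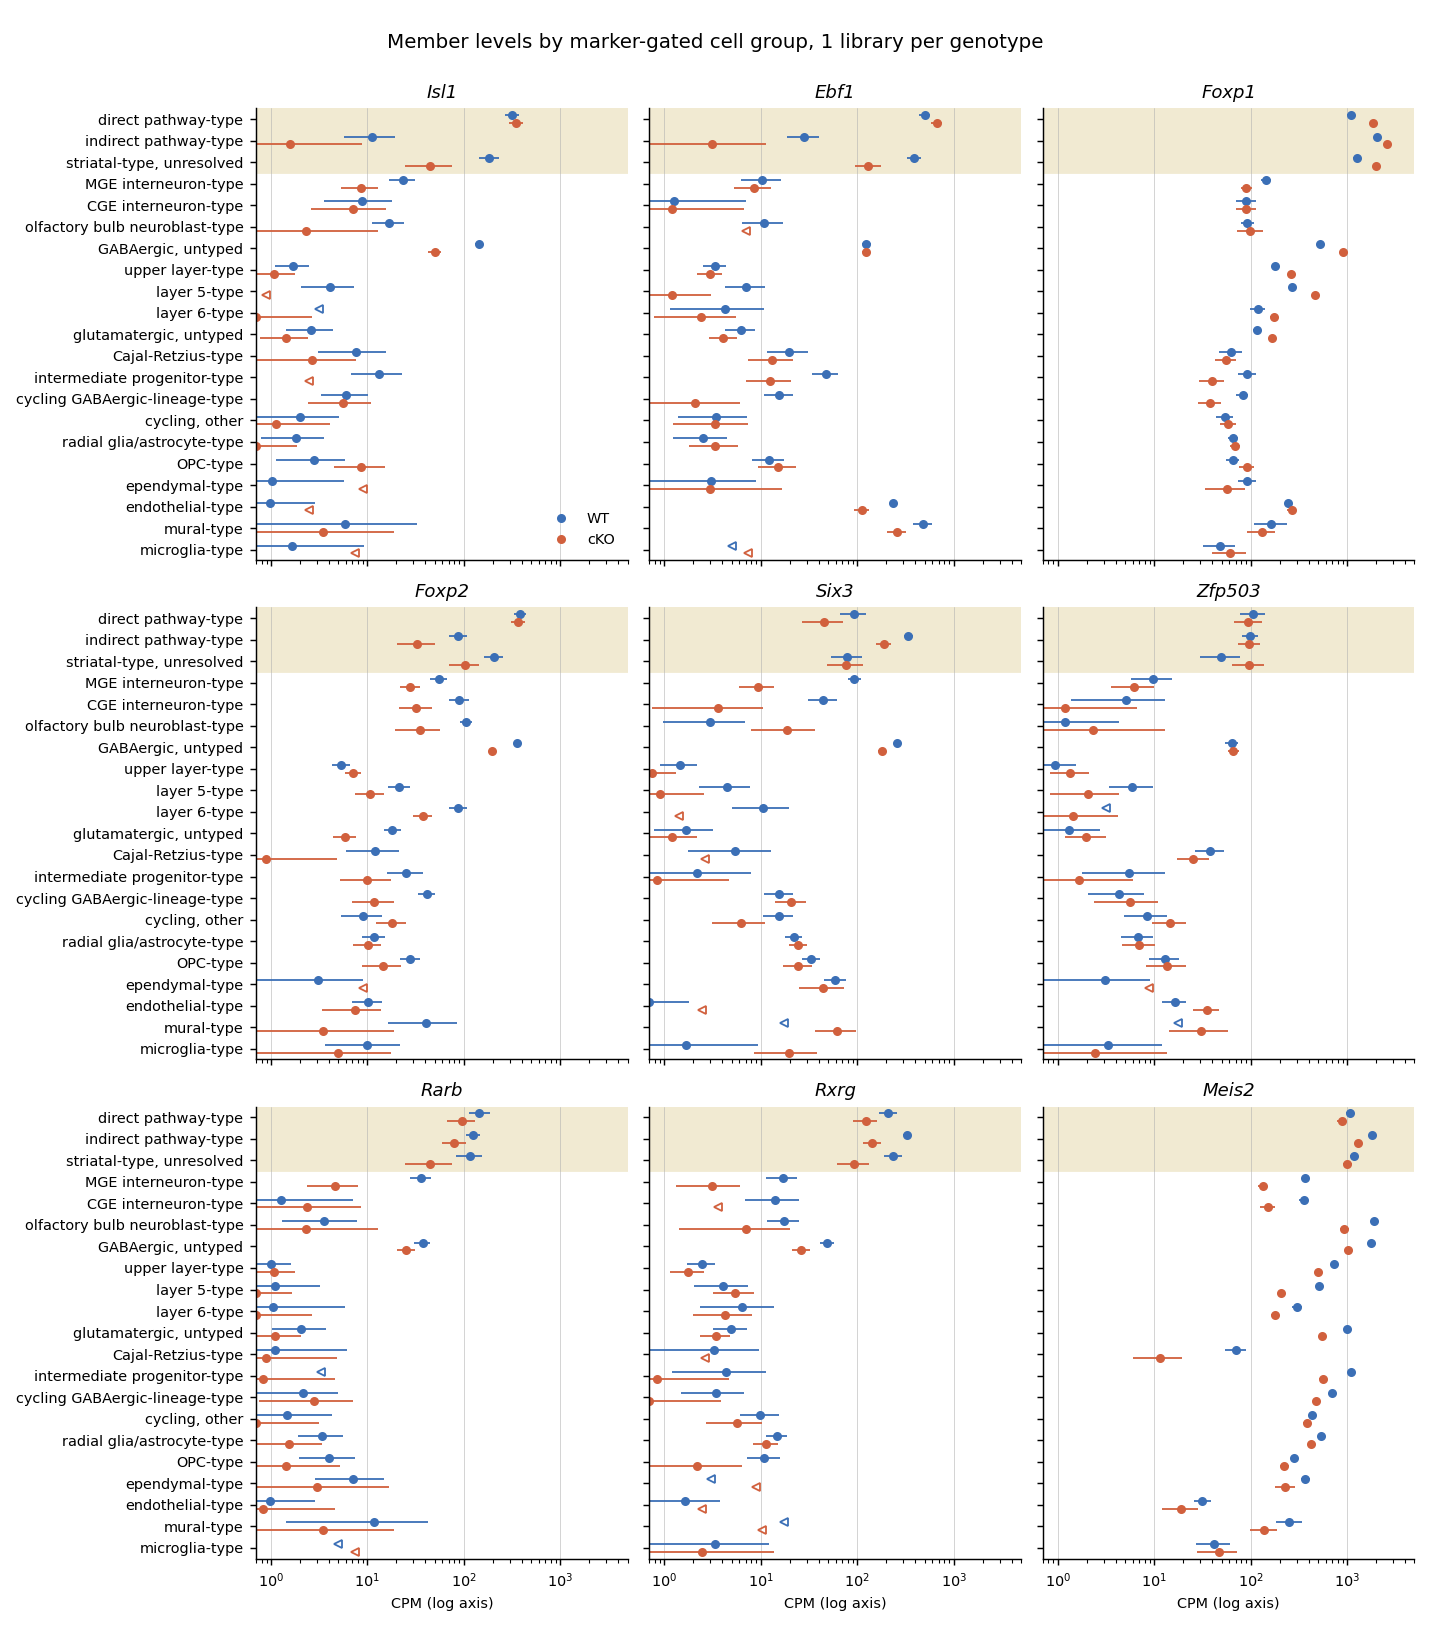
Level of each gene (CPM, log axis) in 21 cell groups of at least 20 cells in each library, with 1 panel per gene. Points are the summed UMIs of a group in the WT (blue) or cKO (orange) library, bars are exact Poisson intervals, open triangles are groups with 0 UMIs drawn at the limit that 3 counts allow, and the shaded rows are striatal-type cells. Rarb and Rxrg are high in the shaded rows, whereas Meis2 is high in most rows.

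Against all other neurons together, the retinoid receptor genes had the highest ratios of the 9. Rxrg, which encodes the retinoid X receptor gamma, had 538 UMIs in the WT striatal-type cells (282 CPM, interval 259 to 307) and 169 in the cKO cells (125, 107 to 145). In the other neurons it was at 9.18 and 4.98 CPM, so striatal-type cells were 30.7-fold higher in WT and 25.1-fold higher in cKO. Rarb, the retinoic acid receptor beta gene, was at 127 CPM (112 to 145) in WT and 76.2 (62.2 to 92.4) in cKO striatal-type cells, 19.2-fold and 21.9-fold above the other neurons. The order depended on the cells compared with. Against the other GABAergic neurons of WT, Foxp1 (5.87-fold) was above Rarb (5.06-fold), and against glutamatergic neurons Six3 had the highest ratio (106-fold in WT and 142-fold in cKO, beside 103-fold and 79.9-fold for Rarb). Striatal-type cells held 52.2% of all WT and 39.2% of all cKO Rxrg UMIs, and 44.6% and 39.2% of the Rarb UMIs, although they held only 3.6% and 2.6% of all UMIs. Across 21 cell groups of each library (42 points, log2 of CPM plus 10), Rarb and Rxrg had the highest correlation of any pair of the 9 genes (Pearson's r = 0.930), as a description over points that share a library and its depth. Rarb overlaps Top2b, which lies on the other strand. Of the counted genes, Gm20696 overlaps Foxp1 on the same strand, and Gm12158 and Gm28528 lie antisense to Ebf1 and Six3. Strand use in counting was not given in the sources used here, so reads of overlapping genes could have been mixed, and the values of these 4 members are uncertain to that extent.

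Foxp1, a forkhead repressor, was the most abundant of the 9 in striatal-type cells by UMIs, a scale that does not correct for transcript length. It was at 1654 CPM in WT (1597 to 1713) and 2247 in cKO (2168 to 2328), 8.4-fold and 7.72-fold above the other neurons. At least 1 Foxp1 UMI was found in 187 of 196 WT and 119 of 123 cKO striatal-type cells. These shares depend on the added rule, which was set in part after WT cells without Foxp1 had been noticed. Of the 26 WT and 6 cKO cells it took out, 14 and 5 held a Foxp1 UMI. With them kept, Foxp1 was at 1404 CPM in WT and 2023 in cKO, beside 1381 and 992 for Meis2. Glutamatergic neurons also made Foxp1, at 172 and 249 CPM, and because they are many they held 36.1% of the WT and 47.3% of the cKO UMIs. Among glutamatergic groups the layer 5-type cells were highest, at 268 and 462 CPM. Endothelial-type cells had 246 and 266.

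Zfp503, a zinc finger repressor of the ventral forebrain, was at 90.7 and 96.2 CPM in striatal-type cells, 11.7-fold and 12.3-fold above the other neurons. Outside the GABAergic neurons, among groups of at least 20 cells, it was highest in Cajal-Retzius-type cells of WT, at 38.2 CPM, and in endothelial-type cells of cKO, at 35.2. Ebf1 was at 212 and 229 CPM in striatal-type cells, 13.3-fold and 16.1-fold above the other neurons. Under the stricter cell filter the WT log2 ratio turned to -1.54, with an interval that included 0 (-4.61 to 0.35). Ebf1 is also a factor of blood vessel cells, and the mural-type cells had 479 (WT) and 257 (cKO) CPM and the endothelial-type cells 236 and 111. Together these vessel cells held 39.6% of the WT and 17.0% of the cKO Ebf1 UMIs.

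Isl1, a LIM homeodomain factor, was at 117 and 114 CPM in striatal-type cells, 6.8-fold and 18.5-fold above the other neurons. Against the other GABAergic neurons alone it was 1.69-fold and 4.19-fold higher. The highest level of Isl1 was in 5 WT cells of the cholinergic type, where Isl1 is a known identity factor, with 153 UMIs or 875 CPM. Those cells also held 62 Six3 UMIs, and the cKO library had no cell of this type. Six3 was at 229 and 121 CPM in striatal-type cells, 7.12-fold and 6.75-fold above the other neurons. Against the other GABAergic neurons alone it was 1.69-fold and 1.38-fold higher, which is short of 2-fold in both libraries. Those neurons held 51.4% and 59.3% of the Six3 UMIs, beside 22.8% and 15.4% in striatal-type cells. Six3 was nearly absent from glutamatergic neurons, at 2.16 and 0.851 CPM. Ependymal-type cells had 59.3 and 44.6, and radial glia/astrocyte-type cells 21.9 and 24.5.

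Foxp2 and Meis2 had the lowest ratios of striatal-type cells over the other neurons. Foxp2 was at 180 and 149 CPM in striatal-type cells, 3.36-fold and 5.21-fold above the other neurons, and the other GABAergic neurons as a whole were at 194 and 107. Within the cortex-type neurons, the layer 6-type cells, in which Foxp2 is a known marker, were highest, with 87.7 and 37.6. Meis2 was at 1512 and 1104 CPM in striatal-type cells, 1.74-fold and 2.27-fold above the other neurons, and the ratio fell short of 2-fold in WT. Olfactory bulb neuroblast-type cells (366 in WT and 76 in cKO) had 1884 and 940 CPM and intermediate progenitor-type cells 1100 and 558. Glutamatergic neurons held 47.7% of the WT and 55.4% of the cKO Meis2 UMIs, close to their 46.9% and 56.2% of all UMIs.

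**Figure D2:**
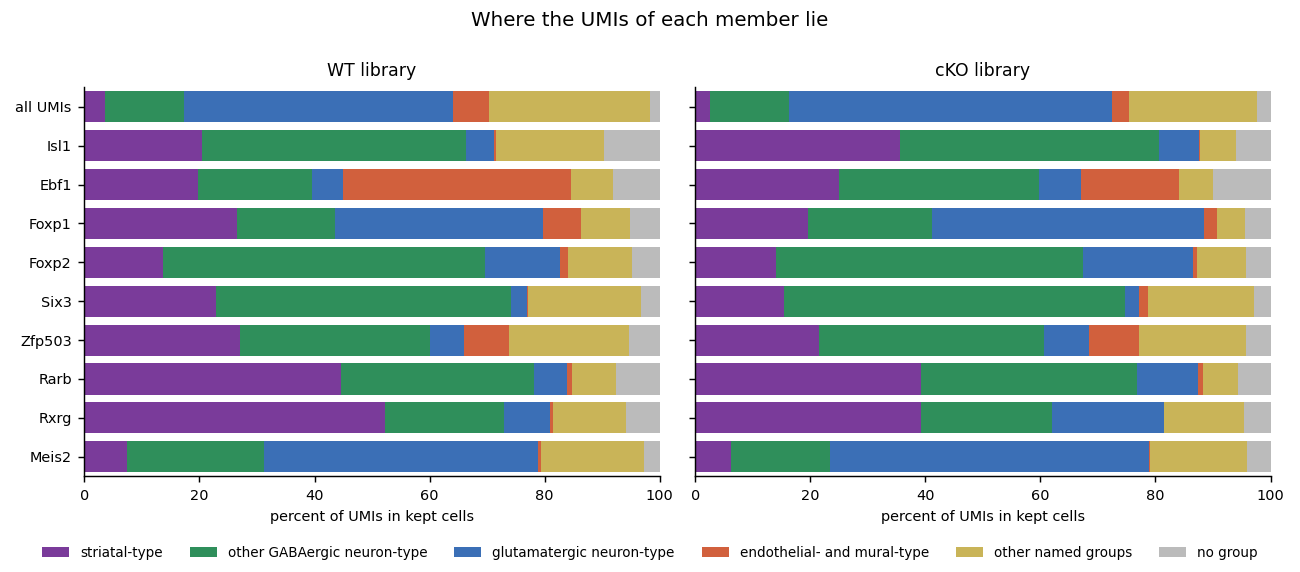
Percent of the UMIs of each gene in kept cells that lay in each class of cells, for the WT (left) and cKO (right) library, with all UMIs as the top bar. Striatal-type cells (purple) held 52.2% of the WT Rxrg UMIs and 7.4% of the WT Meis2 UMIs, beside 3.6% of all WT UMIs.

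GABAergic cells that no marker list typed (669 WT and 635 cKO cells) held a large share of the UMIs of some of the genes. They held 40.3% of the WT and 56.0% of the cKO Six3 UMIs, 42.01% and 45.5% of Foxp2 and 38.9% and 38.3% of Isl1. For Foxp1 the shares were 13.0% and 19.2% and for Meis2 13.3% and 13.7%. Of all UMIs in kept cells they held 2939957 of 53222752 in WT and 3302216 of 52265041 in cKO, a smaller share than of any of these genes. These cells held Isl1 at 145 and 50.3 CPM, Ebf1 at 124 in both libraries, Foxp2 at 359 and 198, Six3 at 262 and 180 and Meis2 at 1774 and 1013. In WT the levels of Isl1, Foxp2, Six3 and Meis2 were above those of striatal-type cells (117, 180, 229 and 1512 CPM). In cKO this held for Foxp2 and Six3 (149 and 121 in striatal-type cells) but not for Isl1 and Meis2 (114 and 1104). The other genes were lower than in striatal-type cells in both libraries. The median depth of the untyped cells was 4046 and 4703 UMIs, against 8453 and 9243 in striatal-type cells. What part of these cells belongs to the striatal lineage was not tested. Of them, 152 WT and 126 cKO cells held UMIs of at least 4 of the 9 genes.

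The striatal-type cells usually combined several of the genes. The median number of the 9 genes with a UMI was 5 per striatal-type cell in both libraries, 2 and 1 in the other GABAergic neurons and 1 in glutamatergic neurons. At least 4 of the 9 were present in 166 of 196 WT and 87 of 123 cKO striatal-type cells, and in 27 of 2585 WT and 20 of 2802 cKO glutamatergic neurons. Of the other GABAergic neurons, 177 of 1426 WT and 134 of 1232 cKO cells held at least 4. After thinning every cell to 1000 UMIs, the share with at least 4 was 17.4% in WT and 8.94% in cKO striatal-type cells, and 0.0391% and 0% in glutamatergic neurons. In the other GABAergic neurons it was 2.34% and 1.32%.

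At that equal depth Foxp1 had a UMI in 75.9% of the WT and 85.4% of the cKO striatal-type cells, Meis2 in 76.4% and 67.5%, Rxrg in 19.5% and 9.76% and Six3 in 17.4% and 6.50%. In glutamatergic neurons of the same library at the same depth, an Rxrg UMI was found in 0.391% and 0.251% of cells and a Six3 UMI in 0.274% and 0.0717%. Isl1 had a UMI in 6.67% of the WT and 5.69% of the cKO striatal-type cells, beside 0.117% and 0.0358% of the glutamatergic neurons. For these 3 genes the lower ends of the striatal-type intervals (at least 2.32%) were above the upper ends of the glutamatergic ones (at most 0.717%) in both libraries. This sets striatal-type cells against glutamatergic neurons only. By CPM without thinning, they were above the other GABAergic neurons 9.57-fold and 9.14-fold for Rxrg. The same ratios were 1.69-fold and 1.38-fold for Six3, and 1.69-fold and 4.19-fold for Isl1. Microglia-type cells held no UMI of the genes other than Foxp1 and Meis2 at this depth, but with 54 WT and 27 cKO cells a count of 0 allows a share of up to 5.56% and 11.1%, too wide a limit to set these shares against. Before thinning, an Rxrg UMI was found in 73.5% of the WT and 54.5% of the cKO striatal-type cells and a Six3 UMI in 57.1% and 37.4%.

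Some of the genes differed between the output pathways in both libraries. Isl1, Ebf1 and Foxp2 were higher in direct pathway-type cells and Six3 was higher in indirect pathway-type cells, so that 4 of 9 passed the 2-fold criterion in both libraries. Of the 7727 genes compared, 2.91% passed it in either direction. Direct pathway-type cells were deeper, with median UMIs of 13425 and 16127.5 against 7888 and 8519, and whether depth plays a part beyond the scaling was not tested.

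**Figure D3:**
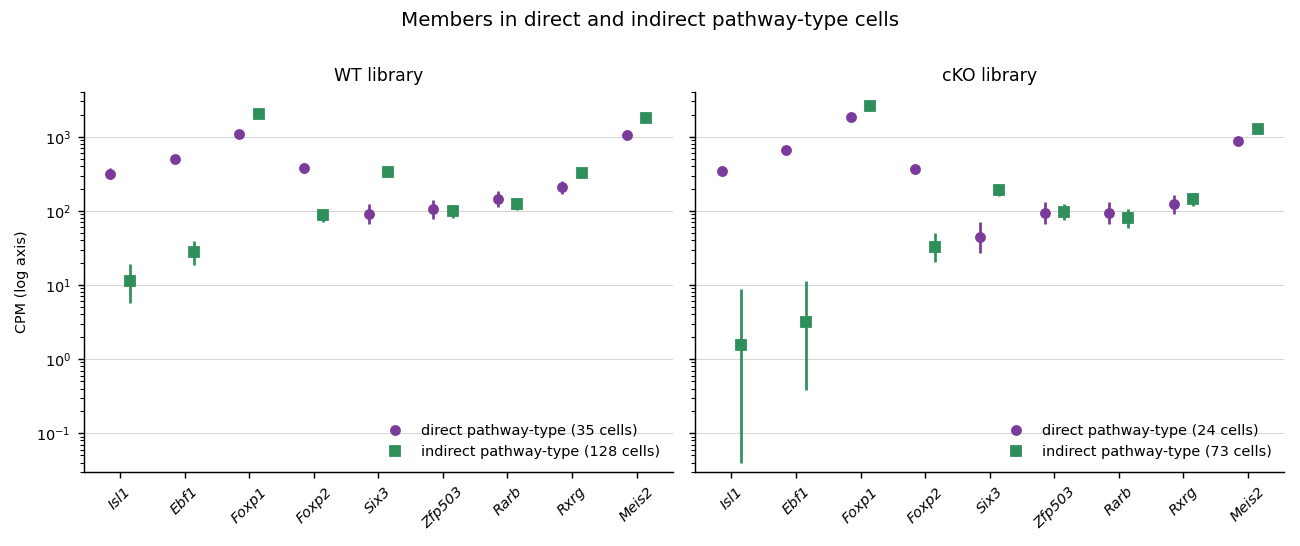
Level of each gene (CPM, log axis) in direct pathway-type (purple circles) and indirect pathway-type cells (green squares) of the WT (left) and cKO (right) library, with exact Poisson intervals. Isl1, Ebf1 and Foxp2 sit higher in direct and Six3 higher in indirect pathway-type cells in both panels, whereas Zfp503 and Rarb overlap.

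Isl1 had 142 UMIs in the 35 WT direct pathway-type cells and 12 in the 128 indirect pathway-type cells, which is 317 against 11.1 CPM (log2 ratio 4.83, interval 3.98 to 5.82). In cKO the counts were 139 and 1 (log2 ratio 7.79, 5.29 to 13.10). A UMI of Isl1 was found in 80.0% of the WT and 83.3% of the cKO direct pathway-type cells, and in 3.1% and 1.4% of the indirect pathway-type cells.

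Ebf1, which acts in direct pathway neurons, was at 502 against 27.9 CPM in WT (log2 ratio 4.17, 3.62 to 4.77) and 666 against 3.14 in cKO (7.73, 5.86 to 10.78). A single WT indirect pathway-type cell held 28 of the 30 Ebf1 UMIs of its group. Without that cell the WT log2 ratio was 8.06 (6.19 to 11.12). Within striatal-type cells Isl1 and Ebf1 were found together: an Ebf1 UMI was present in 65.9% of the 44 WT cells with an Isl1 UMI and in 3.3% of the 152 without, and in 87.0% of 23 and 8.0% of 100 in cKO. The cells with an Isl1 UMI were deeper, with median UMIs of 13033 against 7931.5 in WT and 15644 against 8685 in cKO.

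Foxp2 was at 384 against 87.3 CPM in WT (log2 ratio 2.14, 1.77 to 2.52) and 369 against 32.9 in cKO (3.49, 2.82 to 4.22). Six3 went the other way, with 91.6 in direct against 339 in indirect pathway-type cells of WT (log2 ratio -1.89, -2.39 to -1.42) and 44.9 against 190 in cKO (-2.08, -2.88 to -1.36). In the direct pathway-type cells Six3 rested on few cells: 1 cell held 36.6% of the WT and 1 cell 55.6% of the cKO UMIs. A Six3 UMI was present in 67.2% of the WT and 43.8% of the cKO indirect pathway-type cells.

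Foxp1 and Meis2 were lower in direct pathway-type cells in both libraries, by less than 2-fold. The log2 ratios were -0.88 and -0.49 for Foxp1 and -0.77 and -0.55 for Meis2. With the interneuron-marker cells kept, Foxp1 was past 2-fold in WT (-1.13). Rxrg had a log2 ratio of -0.65 in WT and an interval that included 0 in cKO (-0.75 to 0.29). For Zfp503 the interval was -0.45 to 0.59 in WT and -0.66 to 0.57 in cKO, and for Rarb it was -0.23 to 0.66 and -0.40 to 0.88. All of these include 0 and lie within 2-fold either way, as far as counting error goes. For a difference smaller than 2-fold, neither its presence nor its absence was shown.

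Between genotypes, 1 of the 9 genes differed at least 2-fold in striatal-type cells with an interval that excluded 0, while 18% of all 10556 genes compared did, a share near that background. That gene was Rxrg, at 282 CPM in WT and 125 in cKO (log2 ratio -1.17, -1.43 to -0.92). Under the stricter cell filter Rxrg did not pass and the ratio was 0.053 (-1.20 to 1.16). Six3 fell just short, at 229 in WT and 121 in cKO (-0.92, -1.19 to -0.66). With the 26 WT and 6 cKO cells kept, Six3 was at 242 and 108 (-1.16, -1.42 to -0.91) and the count became 2 of 9, so whether Six3 counts depended on the rule added later.

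**Figure D4:**
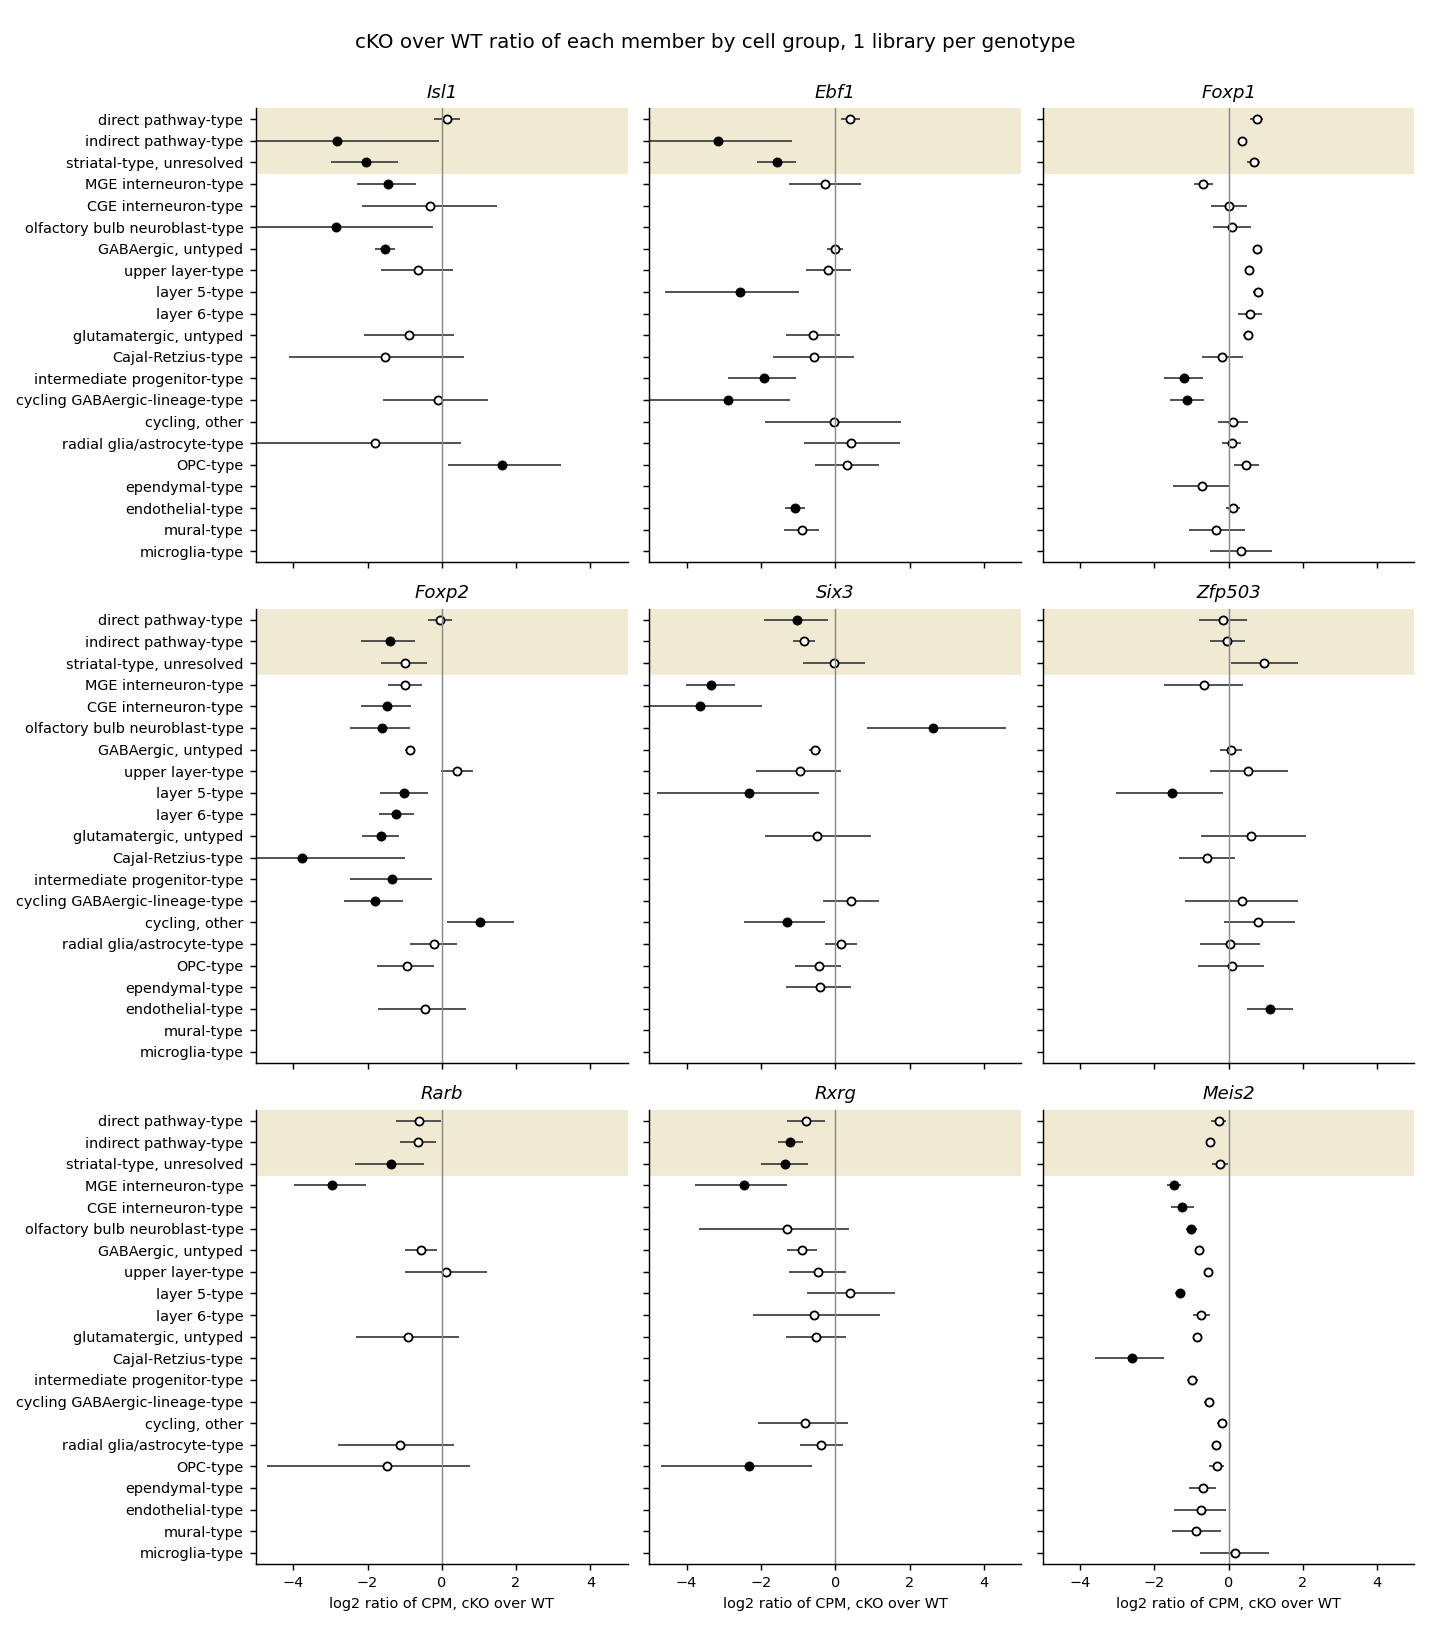
log2 ratio of cKO over WT for each gene in the 21 cell groups with at least 20 cells in both libraries, with exact conditional intervals. Filled points differ at least 2-fold with an interval that excludes 0, groups with too few UMIs or 0 UMIs in 1 library have no point, and shaded rows are striatal-type cells. Meis2 lies below 0 in 20 of 21 groups and Foxp1 above 0 in 15 of 21.

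Of the other genes, Foxp1 was higher in cKO striatal-type cells (log2 ratio 0.44, 0.37 to 0.51), and Rarb (-0.74, -1.09 to -0.40), Meis2 (-0.45, -0.55 to -0.36) and Foxp2 (-0.28, -0.54 to -0.02) were lower. The intervals of Isl1 (-0.35 to 0.26), Ebf1 (-0.10 to 0.33) and Zfp503 (-0.26 to 0.42) included 0. The median of all genes compared was -0.09. Direct pathway-type cells made up 17.9% of the striatal-type cells in WT (12.8 to 23.9%) and 19.5% in cKO (12.9 to 27.6%), and indirect pathway-type cells 65.3% (58.2 to 71.9%) and 59.3% (50.1 to 68.1%), with intervals that overlapped. The summed markers of the direct pathway were at 356 CPM in WT and 608 in cKO striatal-type cells, those of the indirect pathway at 446 and 243, and those shared by both at 1725 and 1198. Within indirect pathway-type cells the shared markers were at 2003 and 1093 and the indirect pathway markers at 783 and 513. Within direct pathway-type cells the shared markers were at 1648 and 1669 and the direct pathway markers at 1501 and 2044. These markers set the cell groups. The part of these levels and of the make-up in the ratios was not tested beyond the values within each type.

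Within indirect pathway-type cells 4 of 9 genes passed the criterion, all lower in cKO, and 17.9% of all genes compared did in either direction. They were Rxrg (329 in WT, 143 in cKO), Foxp2 (87.3 and 32.9), Ebf1 (27.9 and 3.14) and Isl1 (11.1 and 1.57). With the interneuron-marker cells kept, Isl1 did not pass and Six3 did (log2 ratio -1.08, -1.38 to -0.79). For Ebf1 and Isl1 this rested on single WT cells: without the highest one, 2 Ebf1 UMIs were left in WT beside 2 in cKO, and the Isl1 interval included 0 (-7.37 to 1.20). Within direct pathway-type cells Six3 alone passed (91.6 and 44.9 CPM), where 12.3% of genes did, and without the highest WT cell its interval included 0 (-1.35 to 0.53). With the interneuron-marker cells kept, Six3 did not pass there and Foxp1 did, at 823 in WT and 1714 in cKO (log2 ratio 1.06, 0.89 to 1.22) against 1099 and 1852 without them (0.75, 0.59 to 0.92). Within the unresolved striatal-type cells 4 of 9 genes passed, all lower in cKO, where 12.8% of genes did. They were Isl1 (70 UMIs in 12 WT cells and 14 in 2 cKO cells, log2 ratio -2.03), Ebf1 (149 and 41, -1.57), Rarb (44 and 14, -1.36) and Rxrg (90 and 29, -1.35). Foxp2, just short of 2-fold there, passed once the interneuron-marker cells were kept (-1.60, -2.22 to -1.02).

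Over the 21 cell groups compared, the 3 striatal-type ones included, the interval of Meis2 lay below 0 in 20, with log2 ratios from -2.61 in Cajal-Retzius-type cells (64 UMIs in WT, 13 in cKO) to -0.18 in the cycling cells outside the GABAergic lineage. The exception was the microglia-type cells (0.16, -0.78 to 1.08). The median of all genes compared was itself -0.28 in the kept cells as a whole, where Meis2 was at -0.66. The Foxp1 ratio was above 0 in 15 of 21 groups, with an interval above 0 in 9 and below 0 in 3. It ran from -1.21 in intermediate progenitor-type cells (84 UMIs in WT, 48 in cKO) and -1.11 in cycling GABAergic-lineage-type cells (192 and 55) to 0.78 in layer 5-type cells (724 and 1555). In the other GABAergic neurons 3 of 9 genes passed (Isl1, Rxrg and Meis2, all lower in cKO), and 20.8% of all genes compared did. With the interneuron-marker cells counted as striatal-type, Rxrg did not pass there (-0.92, -1.29 to -0.56, against -1.11). In glutamatergic neurons 2 of 9 passed (Isl1 and Six3, both lower), where 23% of genes did.

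In the groups taken singly, the number of the 9 genes that passed between genotypes varied, and many calls rested on few UMIs. Some genes reached the minimum of 10 UMIs only through the library in which they were higher. Examples are Isl1 (0 UMIs in cKO, 11 in WT) and Six3 (3 and 12) in layer 5-type cells, and Six3 (0 and 10) in layer 6-type cells. The counts below therefore do not show a genotype effect on the 9 genes. In MGE interneuron-type cells 5 passed of 9 that could be compared (20.4% of all genes compared did in either direction), in CGE interneuron-type cells 4 of 6 (17.8%), in olfactory bulb neuroblast-type cells 5 of 7 (14.7%) and in untyped GABAergic cells 1 of 9 (19.4%). In layer 5-type cells 6 of 8 passed (16.9%), in layer 6-type cells 2 of 5 (15.5%), in untyped glutamatergic cells 1 of 9 (22.5%) and in the neurons outside the striatal type together 1 of 9 (22.9%). In intermediate progenitor-type cells 4 of 5 passed (17.7%), in cycling GABAergic-lineage-type cells 3 of 7 (15.3%), in the other cycling cells 2 of 7 (13.5%) and in OPC-type cells 2 of 9 (15.3%). In Cajal-Retzius-type cells 2 of 6 passed (11.2%), in endothelial-type cells 2 of 5 (18.7%) and in mural-type cells 1 of 4 (12.9%). None passed in upper layer-type cells (0 of 9, where 23.5% of all genes did), radial glia/astrocyte-type cells (0 of 9, 16.6%), ependymal-type cells (0 of 3, 10.9%) or microglia-type cells (0 of 2, 12.8%). The genes that passed were lower in cKO, except Six3 in olfactory bulb neuroblast-type and mural-type cells, Isl1 in OPC-type, Foxp2 in the other cycling and Zfp503 in endothelial-type cells, which were higher.

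A large difference was that of Six3 in MGE interneuron-type cells, with 172 UMIs in 258 WT cells and 24 in 368 cKO cells (log2 ratio -3.33, -4.01 to -2.71). A UMI of it was found in 16 of the WT and 7 of the cKO cells. Most of the cells that the added rule took out of the striatal type went to this group. With them left in the striatal type, Six3 had 53 UMIs in 239 WT cells and 24 in 364 cKO cells, and the log2 ratio was -1.87 (-2.63 to -1.15). The size of this difference was therefore set in good part by the placing of few WT cells. Rxrg passed in the same group with 31 UMIs in WT and 8 in cKO (-2.45, -3.78 to -1.29), but with those cells left in the striatal type it had 8 in each and did not pass (-0.73, -2.34 to 0.89). The other 3 that passed in MGE interneuron-type cells did so with either placing: Rarb (66 UMIs in WT and 12 in cKO) at -2.95 and -2.69, Meis2 (682 and 346) at -1.47 and -1.21, and Isl1 (43 and 22) at -1.46 and -1.40. In CGE interneuron-type cells the same placing took Foxp2 from -1.48 to -0.83 (-1.57 to -0.11) and Meis2 from -1.24 to -0.93 (-1.26 to -0.61), and left Rxrg with 8 UMIs in WT and 0 in cKO, so that none of these 3 passed. In olfactory bulb neuroblast-type cells Isl1 went from -2.85 to -2.57, with an interval that included 0 (-7.94 to 0.049).

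Of 14 other listed genes of the retinoic acid pathway, 12 could be compared between striatal-type cells and other neurons, and 4 were higher and 1 lower in both libraries, where 3.1% of all genes compared were higher and 3.28% lower. The retinoic acid-binding protein gene Crabp1 was at 147 against 20.8 CPM in WT and 336 against 18.1 in cKO. Rara, Rdh10, which makes retinaldehyde, and the retinol uptake receptor gene Stra6 were the others that were higher, and Aldh1a3, a retinoic acid-making enzyme, was lower. The other 7 did not pass. The median log2 ratio of the list was 0.94 in WT and -0.15 in cKO, with genes without a UMI in striatal-type cells ranked lowest (1 in WT and 3 in cKO). Between the pathways 4 of the genes could be compared, and Crabp1 was higher in direct pathway-type cells (275 against 123 CPM in WT, 734 against 215 in cKO), where 2.91% of all genes passed in either direction.

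Of 16 paralogs and cofactors of the 9 genes, Tle4 served as a marker and is left aside. Another 10 could be compared, and 1 was higher in striatal-type cells, Meis1 (52.4 against 10.5 CPM in WT, 29.6 against 6.32 in cKO). Between the pathways 9 could be compared, and Meis1, a TALE factor like Meis2, was higher in indirect pathway-type cells. The shares over all genes were again 3.1% higher and 3.28% lower in striatal-type cells, and 2.91% in either direction between the pathways, here and for the next list. Of 17 other factors of the striatal lineage, 6 served as markers of the cell groups and are left aside. Another 10 could be compared, of which 4 were higher in striatal-type cells (Ikzf1, Ikzf2, Zfhx3 and Sox8) and 0 lower. Between the pathways 8 of these could be compared, and Sp9, Ikzf2, Zfhx3 and Pou3f1 were higher in indirect and Ikzf1 in direct pathway-type cells. Sp9, a zinc finger factor of indirect pathway neurons, was at 15.6 in direct against 317 CPM in indirect pathway-type cells of WT, and 4.99 against 288 in cKO.

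By likeness of pattern over the 42 points, the genes nearest to the 9 that were neither markers nor members were Dclk3 for Foxp1 (r = 0.914) and for Rarb (0.917), Gm14133 for Rxrg (0.893), Col25a1 for Isl1 (0.869), Mpped2 for Meis2 (0.867), Rem2 for Foxp2 (0.837), Tspan9 for Zfp503 (0.822), Nkx2-3 for Six3 (0.789) and Plekhh2 for Ebf1 (0.725). Dclk3 was among the 3 nearest genes of Foxp1, Zfp503, Rarb and Rxrg. The lowest correlation between any pair of the 9 was that of Ebf1 and Meis2 (r = 0.108). These values describe points that share libraries and depth.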

How the data were processed

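The authors deposited, for each library, a matrix of raw UMI counts per gene and barcode, written by Cell Ranger 3.0.1 per the file headers. The submitters' notes name mm9, STAR, Cell Ranger 2 and Seurat without roles. Gene positions and promoters were taken from GENCODE M21 and RefSeq on GRCm38, since the counts carry no coordinates. Cells with at least 500 genes and at most 10% mitochondrial UMIs were kept, and the 5% with the highest Scrublet scores (scanpy 1.11.5) were left out, because the automatic threshold called 0% in cKO. UMIs were summed per cell group and scaled to 1000000 (CPM) with exact Poisson intervals, and ratios carry exact conditional binomial intervals, which cover counting error only. Calls needed a 2-fold difference, an interval excluding 0 and at least 10 UMIs. No test was run, since each genotype had 1 library. The calculations were tested on simulated data with independent Poisson counts, which leave out the clustering of UMIs in single cells. TMM factors came from edgeR 4.0.16 in R 4.3.3, for scaling alone.

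The 9 genes, the gene lists and the marker lists were chosen with earlier results of these data known. The named genes besides the 9 are the 3 nearest to each by Pearson's r and the members of the 3 lists. The marker thresholds and the doublet rule were set after the marker UMIs were seen. The condition on interneuron markers was added after the 9 genes' values had been seen. The rule for results to look at again was for a time limited to genes with at least 10 UMIs in each library, after its first output was seen, and this limit was then withdrawn. The genotypes were first compared in 12 chosen cell groups, and after these values were seen in all 21 with at least 20 cells in both libraries. Of the genes first listed, 2 are not reported here and were left out of the list counts. All columns of per-sample values were used.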

Additional observations from a re-analysis of the deposited data

Results flagged for a closer look

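Isl1, Foxp2, Six3 and Zfp503 differed at least 2-fold between genotypes in opposite directions in different cell groups. The difference between groups was not tested, and many of these values rest on few UMIs. All values are log2 ratios of cKO over WT, and some groups are parts of others.

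Isl1 was higher in OPC-type cells (1.62, 12 UMIs in cKO and 7 in WT). It was lower in indirect pathway-type (-2.83, 1 and 12 UMIs), unresolved striatal-type (-2.03), MGE interneuron-type (-1.46), olfactory bulb neuroblast-type (-2.85, 1 and 28 UMIs) and untyped GABAergic cells (-1.53), in the other GABAergic (-1.35) and glutamatergic neurons (-1.03) and in all other neurons together (-1.49). In layer 5-type and intermediate progenitor-type cells Isl1 had 0 UMIs in cKO and 11 and 12 in WT, with intervals that ended at -1.65 and -1.88.

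Foxp2 was higher in cycling cells outside the GABAergic lineage (1.02, 32 and 18 UMIs). It was lower in indirect pathway-type (-1.41), CGE interneuron-type (-1.48), olfactory bulb neuroblast-type (-1.61), layer 5-type (-1.01), layer 6-type (-1.22), untyped glutamatergic (-1.64), Cajal-Retzius-type (-3.77, 1 and 11 UMIs), intermediate progenitor-type (-1.34) and cycling GABAergic-lineage-type cells (-1.81).

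Six3 was higher in olfactory bulb neuroblast-type cells (2.64, 8 and 5 UMIs) and in mural-type cells, with 18 UMIs in cKO and 0 in WT and an interval that began at 1.37. It was lower in direct pathway-type (-1.03), MGE interneuron-type (-3.33), CGE interneuron-type (-3.63, 3 and 35 UMIs), layer 5-type (-2.32, 3 and 12 UMIs) and other cycling cells (-1.31) and in all glutamatergic neurons (-1.34). In layer 6-type cells it had 0 UMIs in cKO and 10 in WT, with an interval that ended at -2.32. Zfp503 was lower in layer 5-type (-1.51, 7 and 16 UMIs) and higher in endothelial-type cells (1.12, 43 and 50 UMIs).

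Several of these values rest on very few cells, whose UMIs are not independent, so that the counting intervals are too narrow for them. The Six3 UMIs of the library with the higher level lay in 1 WT layer 6-type cell, 1 cKO olfactory bulb neuroblast-type cell, 2 cKO mural-type cells and 2 WT CGE interneuron-type cells. Those of Isl1 lay in 4 WT indirect pathway-type, 4 WT intermediate progenitor-type, 5 WT layer 5-type and 4 cKO OPC-type cells, the WT Foxp2 UMIs of Cajal-Retzius-type cells in 3 cells and the WT Zfp503 UMIs of layer 5-type cells in 5.

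With the interneuron-marker cells kept as striatal-type, Foxp1 would join them, at 1.06 in direct pathway-type cells against -1.11 in cycling GABAergic-lineage-type and -1.21 in intermediate progenitor-type cells, and Six3 would not pass in direct pathway-type cells (-0.91). Isl1 would then not pass in indirect pathway-type and olfactory bulb neuroblast-type cells (-2.65 and -2.57, with intervals that include 0), nor Foxp2 in CGE interneuron-type cells (-0.83).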

How the results depend on the processing

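No paired analysis was possible because there was 1 library per genotype, and for the same reason no replicate could be left out. The count of 8 genes higher in striatal-type cells and that of 4 genes split between the pathways stayed within 1.5 times under the alternatives run, except that the pathway count could not be had under the stricter cell filter. The genotype count in striatal-type cells moved from 1 to 2 with no cell filter, with 1 marker more in the gate and with interneuron-marker cells kept, where Six3 joined Rxrg, and under the stricter cell filter, where the 2 were not Rxrg but Foxp1, higher in cKO (log2 ratio 1.03), and Isl1, with 30 UMIs in WT and 0 in cKO. The striatal-type share of cells moved in WT to 2.64% with no cell filter, 1.38% under the stricter filter, 2.19% with 1 marker more and 3.83% with 1 marker fewer, and in cKO to 0.711%, 1.42% and 3.25% under the last 3. Under the stricter filter (22 WT and 9 cKO striatal-type cells) the log2 ratio of Ebf1 over other neurons in WT was -1.54 and that of Rxrg in cKO over WT was 0.053, both reversed, and the cause was not tested. TMM factors shifted the cKO striatal-type ratios over other neurons by -0.13, the direct over indirect ratios by -0.11 in WT and -0.15 in cKO, and the genotype ratios by 0.06.

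The rule on interneuron markers, 1 marker fewer in the gate and the automatic doublet threshold were alternatives chosen after seeing the data. With 1 library per genotype and 24 direct pathway-type cells in cKO, differences in that type rest on few cells.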
